A study of Mus musculus with 16 samples.

Results

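A set of 10 genes of the NF-κB system was followed through the transcriptome of primary mouse hepatocytes: the 5 subunits *Nfkb1*, *Nfkb2*, *Rela*, *Relb* and *Rel*, the IκB genes *Nfkbia*, *Nfkbib*, *Nfkbie* and *Nfkbiz*, and *Tnfaip3*, which encodes the deubiquitinase A20. The members were named by gene symbol, as subunits and inhibitors of the pathway and with earlier results of these data known, and all 10 were found among the 55450 genes quantified. Bulk RNA-seq had been made from hepatocytes of wild-type C57BL/6J mice, cultured overnight with no addition (untreated), with 10 mM sodium itaconate, with a chemically defined mixture of lipids diluted 10-fold, or with lipid and itaconate together. All 4 groups shared the same medium, which held serum and an insulin-transferrin-selenium supplement, and the labels name no cytokine or bacterial product in any group. Each group had 4 libraries, named by the replicate letters A to D, and the labels do not say whether the letters stand for separate mice, so that p values measure a spread between libraries that may be technical. The design asks what itaconate, an immunometabolite made by activated macrophages, does to hepatocytes with and without a lipid load.

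NF-κB is a family of dimeric transcription factors built from these 5 subunits. In a resting cell most dimers are held in the cytoplasm by IκB proteins, and signals from the receptors for TNF, IL-1 and bacterial products activate the IKK kinases, which mark IκB for destruction and let the dimers into the nucleus. *Nfkbia* and *Tnfaip3* are themselves classical targets of NF-κB and close a negative feedback loop. *Nfkbiz* encodes IκBζ, an atypical IκB that sits in the nucleus and can raise as well as restrain the transcription of selected secondary genes. In the liver the pathway is known for the acute phase response, for chemokine production and for protection of hepatocytes from death induced by TNF.

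The sequences that bear on this feedback are the κB sites near the start of the genes, and all of those found in the members are shown. Promoters from RefSeq (GRCm38), from 250 bases before to 50 bases after the start, were at hand for 7 of the 10 genes (*Nfkb2*, *Rela*, *Rel*, *Nfkbia*, *Nfkbib*, *Nfkbie* and *Tnfaip3*) and not for *Nfkb1*, *Relb* or *Nfkbiz*. The κB consensus, searched on both strands, was present in 5 of the 7 genes, beside 5.14% of the 27025 genes in the RefSeq table. Counted by promoter, since *Nfkb2* has 3 promoters and *Tnfaip3* 2 in that table, it was present in 7 of 10, beside 4.51% of 32851. The windows below are 30 bases long, written 5′ to 3′ on the strand of the gene, with the κB match in capitals.
Nfkbia, 29 bases before the start (chr12:55492657-55492686, minus strand): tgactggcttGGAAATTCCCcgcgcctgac
Tnfaip3, 12 bases before the start (chr10:19015403-19015432, minus strand): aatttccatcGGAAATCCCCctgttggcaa
Tnfaip3, 125 bases before the start (chr10:19015516-19015545, minus strand): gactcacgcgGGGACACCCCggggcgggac
Rel, 92 bases before the start (chr11:23771041-23771070, minus strand): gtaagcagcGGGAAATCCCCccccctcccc
Nfkbie, 106 bases before the start (chr17:45555584-45555613, plus strand): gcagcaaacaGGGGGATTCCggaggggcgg
Nfkb2, 39 bases before the start (chr19:46304689-46304718, plus strand): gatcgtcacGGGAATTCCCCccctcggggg
Nfkb2, 11 bases before the start (chr19:46304716-46304745, plus strand): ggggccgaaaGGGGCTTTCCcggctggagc
Nfkb2, 236 bases before the second start (chr19:46305449-46305478, plus strand): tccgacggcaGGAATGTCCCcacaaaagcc
Nfkb2, 225 bases before the third start and just after the second (chr19:46305695-46305724, plus strand): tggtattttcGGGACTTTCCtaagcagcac
The promoter windows of *Rela* and *Nfkbib*, and the second of *Tnfaip3*, held no match to the consensus. A looser pattern, GGG and CC with any 5 bases between them, contains every consensus match and was present in 50.8% of all promoters. Where 2 overlapping matches were joined, as in *Rel* and the first window of *Nfkb2*, 11 bases are in capitals. A match is a description of the letters and does not show that a factor binds there.

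Each library held between 22346049 and 35512004 expected counts in all, and the members were well covered, from 179 to 396 counts per library for *Nfkbie* to between 5062 and 7998 for *Rela*. Levels are given as CPM, counts scaled to a common library size with TMM factors. Tests come from edgeR's quasi-likelihood model of all 16 libraries, with treatment and replicate letter as terms, and p values carry a Benjamini-Hochberg adjustment over 11675 genes whose mean reached 1 CPM. All 10 members passed that filter. A gene is called higher or lower when its adjusted p is under 0.05. Squared differences between replicate pairs were 10.0 to 64.5 times what counting noise allows (chi-square per gene), except the 3 pairs with lipid + itaconate replicate B, at 106 to 147. Calls of members that were lost without that library are given with and without it. Sums, overlaps between groups and correlations are given with it only. The hepatocyte marker list, led by *Alb*, summed to between 36101 and 62486 CPM in every library.

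Lipid lowered most of the system, and *Nfkbiz*, *Tnfaip3* and *Nfkbia* furthest. Between lipid-treated and untreated hepatocytes, 9 of the 10 members were lower, 0 were higher, and *Nfkbie* alone was not called. Lower calls made up 23.7% of all genes tested (47.5% were called in either direction), so a lower call was common in this comparison, and 9 of 10 lies above that share. The log2 fold changes of the members ran from −1.23 for *Nfkbiz* to −0.18 for *Nfkbie*, with a median of −0.36, beside 0.0047 over all genes tested. With itaconate in both arms, lipid lowered 7 of the 10 and raised 0, against 23.5% of all genes called lower and 47.0% called in either direction. Itaconate by itself changed 0 of the 10 in edgeR, DESeq2 and limma, and 2 members had an unadjusted p under 0.05 in edgeR, where 4.91% of all genes were called (1.96% higher and 2.95% lower). A model of only the 8 libraries of that comparison called *Nfkb2* lower (adjusted p = 0.0172) and *Tnfaip3* higher (0.00729), and leaving out lipid replicate B let *Tnfaip3* pass (0.0420). In lipid-treated cells itaconate raised 3, *Nfkbiz*, *Tnfaip3* and *Nfkbia*, and lowered 0, beside 2.58% of all genes called (1.32% higher and 1.26% lower). These are the 3 genes that lipid lowered most, and both comparisons share the lipid-treated libraries. In bulk RNA a smaller number of cells of some type and less RNA per cell cannot be told apart.

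The separation of the libraries gave a similar picture. With lipid, 9 members had no overlap between the groups, all lower, where 32.5% of all genes did (15.9% lower), and with lipid over itaconate 5 did, all lower, beside 31.4% of all genes (14.8% lower). With itaconate over lipid 3 members had all libraries of one group above the other (*Nfkbib*, *Nfkbiz* and *Tnfaip3*), beside 5.82% of all genes (2.96% higher and 2.85% lower). With itaconate alone 0 did, beside 7.53% of all genes (3.67% higher and 3.86% lower). The 3 calls of itaconate over lipid needed the replicate letter in the model: without it the adjusted p was 0.0973 for *Nfkbiz*, 0.162 for *Tnfaip3* and 0.344 for *Nfkbia*, and the calls among all genes went from 301 to 9. Fitted on the 8 libraries of the comparison alone, with 14 genes called in all, these values were 0.220, 0.246 and 0.294. The 9 calls of lipid against untreated cells held under every alternative run.

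**Figure D1:**
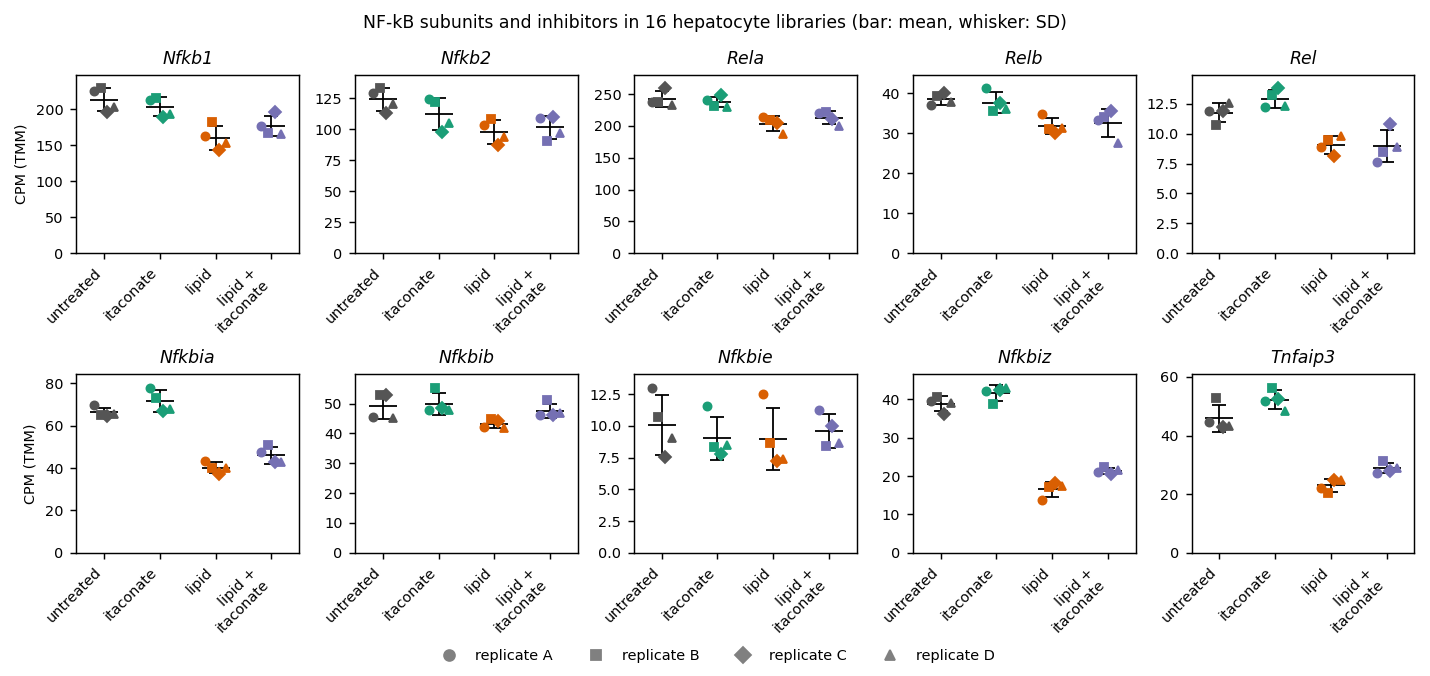
Level of each of the 10 genes in CPM (vertical axes, each from 0) in the 16 libraries, by treatment (horizontal axis). Symbols mark the replicate letters, bars the mean and whiskers the SD of 4 libraries. *Nfkbiz*, *Tnfaip3* and *Nfkbia* sit clearly lower in both lipid groups, while *Nfkbie* overlaps across all 4 groups.

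Per kilobase of exon, *Rela* was the most abundant member in untreated hepatocytes at 78.9 ± 3.92 CPM per kb (SD, n = 4), followed by *Nfkbia* at 41.2 ± 1.42, *Nfkb2* at 27.1 ± 2.01, *Nfkbib* at 22.7 ± 2.00 and *Nfkb1* at 17.7 ± 1.36. *Relb* (9.92 ± 0.367), *Nfkbiz* (7.74 ± 0.375), *Tnfaip3* (6.35 ± 0.637), *Nfkbie* (3.31 ± 0.768) and *Rel* (1.58 ± 0.104) lay lower. Each neighbour in this order was separated by more than its SD. The place of *Nfkb1* depended on the length used, since its 10 annotated transcripts together span 12061 bases of exon against 4149 in the longest, and with the latter it came second at 51.5 CPM per kb. In lipid-treated cells *Nfkbiz* (3.30 ± 0.387), *Tnfaip3* (3.18 ± 0.289) and *Nfkbie* (2.94 ± 0.811 CPM per kb) no longer differed beyond their spread.

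Among the subunits, *Rela* (ENSMUSG00000024927.8, chr19:5637483-5648130, plus strand) encodes p65, the main activating partner of the classical dimer. Its levels in replicates A to D were 237, 238, 260.1 and 234 CPM in untreated, 213, 210.0, 205 and 187 CPM in lipid-treated and 221, 221, 210.4 and 200.3 CPM in lipid + itaconate-treated hepatocytes. All untreated values lay above all values of both lipid groups. *Rela* fell by 15.9% with lipid (log2 fold change −0.25, SE 0.0423, adjusted p = 0.000189) and by 10.4% with lipid in the presence of itaconate (log2 fold change −0.16, SE 0.0422, adjusted p = 0.00618). The itaconate-treated libraries were at 241, 232, 249 and 231 CPM, amid the untreated ones (log2 fold change −0.03, 95% interval −0.12 to 0.06).

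*Nfkb1* (ENSMUSG00000028163.17, chr3:135584655-135691547, minus strand) encodes p105, which is processed to p50, the usual partner of p65. It was measured at 225, 230.1, 196 and 203 CPM in untreated replicates A to D and at 163, 182, 144 and 153 CPM with lipid. The groups did not overlap, and *Nfkb1* fell by 24.9% (log2 fold change −0.41, SE 0.0652, adjusted p = 0.000104), the largest fall among the subunits with lipid alone. With itaconate the values were 214, 216, 190.0 and 194 CPM, and with both agents 177, 168, 197 and 166 CPM. Replicate C of the lipid + itaconate group was its highest and lay above replicates C and D of the itaconate group, so that these groups overlapped, and the call there (log2 fold change −0.20, SE 0.0650, adjusted p = 0.0204) was lost without itaconate replicate A (adjusted p = 0.0567) and without lipid + itaconate replicate A (0.0626), B (0.0844) or D (0.0564). The difference between lipid + itaconate and lipid (0.15 on the log2 scale, adjusted p = 0.264) was positive in 3 of 4 letters and was not called.

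*Nfkb2* (ENSMUSG00000025225.15, chr19:46304320-46312385, plus strand) encodes p100, the precursor of p52 and at the same time an inhibitor of RelB dimers. Untreated replicates A to D held 129, 134, 113 and 120.2 CPM, and lipid-treated ones 103, 108, 87.1 and 93.5 CPM, with no overlap. It fell by 21.1% (log2 fold change −0.34, SE 0.0719, adjusted p = 0.00114). With itaconate it was at 125, 122, 97.9 and 105 CPM without lipid and at 109, 90.8, 110.2 and 97.0 CPM with lipid, and neither the lipid difference between these (−0.14, adjusted p = 0.133) nor the itaconate difference from untreated (−0.15, lower in 4 of 4 letters, adjusted p = 0.253) passed the test. The first was called without lipid + itaconate replicate C (log2 fold change −0.23, adjusted p = 0.00335), the highest library of its group.

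*Relb* (ENSMUSG00000002983.17, chr7:19606217-19629438, minus strand), the activating subunit of the alternative pathway, stood at 36.9, 39.4, 40.0 and 37.8 CPM in untreated and 34.9, 31.1, 30.1 and 31.2 CPM in lipid-treated replicates A to D. Every lipid-treated library was below every untreated one, and *Relb* fell by 17.6% (log2 fold change −0.28, SE 0.0662, adjusted p = 0.00274). The itaconate-treated libraries held 41.3, 35.6, 37.6 and 36.1 CPM and those with both agents 33.2, 34.1, 35.6 and 27.5 CPM. Replicate D of the last group was its lowest and replicate C lay among the itaconate-treated libraries. The call between these groups (log2 fold change −0.21, SE 0.0656, adjusted p = 0.0156) was lost without itaconate replicate A (adjusted p = 0.0580) or lipid + itaconate replicate D (0.0801).

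*Rel* (ENSMUSG00000020275.9, chr11:23736847-23770970, minus strand) encodes c-Rel, a subunit best known from lymphocytes, and was the least abundant member per kilobase. It was read at 11.9, 10.7, 11.9 and 12.6 CPM in untreated, 12.3, 13.2, 13.9 and 12.4 CPM in itaconate-treated, 8.86, 9.52, 8.15 and 9.82 CPM in lipid-treated and 7.63, 8.51, 10.8 and 8.92 CPM in lipid + itaconate-treated replicates A to D. Lipid-treated libraries lay below untreated ones, and lipid + itaconate-treated libraries below itaconate-treated ones. *Rel* fell by 22.5% with lipid (log2 fold change −0.37, SE 0.0992, adjusted p = 0.00645) and by 30.7% with lipid over itaconate (log2 fold change −0.53, SE 0.0976, adjusted p = 0.000452), the one subunit whose second fall was numerically the larger. The difference between these 2 changes was −0.16 on the log2 scale (SE 0.139, adjusted p = 0.796) and was not called. Lymphocyte markers summed to at most 0.399 CPM in a library, and macrophage markers to between 464 and 685 CPM. The part of such cells in the *Rel* counts was not tested.

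Among the inhibitors, *Nfkbia* (ENSMUSG00000021025.8, chr12:55489410-55492647, minus strand) encodes IκBα, the classical feedback inhibitor whose promoter window is shown above. Untreated replicates A to D were at 69.6, 65.0, 64.7 and 65.8 CPM and lipid-treated ones at 43.4, 40.1, 37.3 and 40.2 CPM, well apart. It fell by 39.3% (log2 fold change −0.72, SE 0.0476, adjusted p = 2.09e-08). In the presence of itaconate the fall was from 78.0, 73.2, 66.9 and 67.8 CPM to 47.4, 51.1, 42.8 and 43.0 CPM, or 35.6% (log2 fold change −0.63, SE 0.0468, adjusted p = 1.35e-07), again without overlap. Between lipid + itaconate and lipid it was higher in 4 of 4 letters by 14.3% (log2 fold change 0.19, SE 0.0480, adjusted p = 0.0452), although the groups overlapped. This call stood close to the threshold: with 1 library left out it held without untreated replicate B or lipid + itaconate replicate C, and without any of the other 14 libraries the adjusted p lay between 0.0522 and 0.150, the highest being without lipid + itaconate replicate B. Itaconate without lipid gave 0.11 (95% interval 0.01 to 0.20, higher in 4 of 4 letters, adjusted p = 0.198).

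*Tnfaip3* (ENSMUSG00000019850.11, chr10:19000910-19015657, minus strand) encodes A20, a ubiquitin-editing enzyme that switches off signalling above the IKK kinases, and has κB matches 12 and 125 bases before its start. Its levels in replicates A to D were 44.5, 52.7, 42.9 and 43.4 CPM in untreated and 22.0, 20.5, 24.7 and 24.7 CPM in lipid-treated hepatocytes. All lipid-treated values lay far below the lowest untreated library. *Tnfaip3* fell by 49.7% (log2 fold change −0.99, SE 0.0736, adjusted p = 6.92e-08). With itaconate it was at 52.0, 56.4, 52.4 and 48.3 CPM without lipid and 27.3, 31.2, 27.9 and 28.9 CPM with lipid, where it fell by 44.8% (log2 fold change −0.86, SE 0.0712, adjusted p = 3.94e-07).

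Itaconate raised *Tnfaip3* in lipid-treated cells by 25.1% (log2 fold change 0.32, SE 0.0747, adjusted p = 0.0342), with all lipid + itaconate libraries above all lipid-treated ones. The call was lost without untreated replicate A (adjusted p = 0.0554), itaconate replicate A (0.0506) or B (0.0525), lipid replicate A (0.0911) or B (0.0659), and lipid + itaconate replicate A (0.0892), B (0.0904) or D (0.0862). Its log2 fold change was between 0.22 and 0.38 under all alternatives. Without lipid, *Tnfaip3* was 14.0% higher with itaconate in 4 of 4 letters (log2 fold change 0.19, 95% interval 0.04 to 0.34, adjusted p = 0.129) and was not called.

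*Nfkbiz* (ENSMUSG00000035356.17, chr16:55811375-55838899, minus strand) had the largest lipid difference of the members. Untreated replicates A to D held 39.6, 40.6, 36.2 and 39.0 CPM and lipid-treated ones 13.7, 17.0, 18.1 and 17.4 CPM. Replicate A was the lowest of the lipid-treated libraries, and the highest of them, 18.1 CPM, lay far under the lowest untreated library at 36.2 CPM. *Nfkbiz* fell by 57.3% with lipid (log2 fold change −1.23, SE 0.0726, 95% interval −1.38 to −1.08, adjusted p = 8.59e-09), with log2 ratios between −1.53 in letter A and −1.003 in letter C. With itaconate in both arms the levels were 42.2, 38.7, 42.4 and 43.0 CPM without and 20.95, 22.4, 20.5 and 21.5 CPM with lipid, and *Nfkbiz* fell by 48.7% (log2 fold change −0.96, SE 0.0702, adjusted p = 1.22e-07).

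Itaconate left *Nfkbiz* at 41.6 ± 1.98 CPM (SD, n = 4) in cells without lipid against 38.9 ± 1.88 CPM in untreated ones, a difference that did not pass the test (log2 fold change 0.10, 95% interval −0.05 to 0.24, higher in 3 of 4 letters, adjusted p = 0.422). In lipid-treated cells it raised *Nfkbiz* by 28.7% (log2 fold change 0.36, SE 0.0741, adjusted p = 0.0200), from 16.6 ± 1.94 CPM to 21.3 ± 0.798 CPM, with no overlap. In the latter cells *Nfkbiz* stood at 54.9% of its untreated mean, against 42.7% with lipid alone. The letters differed in size, with log2 ratios of 0.61, 0.39, 0.18 and 0.30 in A to D, and the largest came from letter A, where the lipid-treated library was lowest. The call was lost without lipid replicate A (adjusted p = 0.0541), lipid replicate D (0.0530), lipid + itaconate replicate A (0.0765) or lipid + itaconate replicate B (0.0552), and its log2 fold change stayed between 0.28 and 0.42 under all alternatives. The itaconate effect with lipid exceeded that without lipid by 0.27 (SE 0.101), which had an unadjusted p of 0.0181 in the edgeR test and an adjusted p of 0.479, so a difference between the effects was not shown.

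The other cytoplasmic IκB genes moved less. *Nfkbib* (ENSMUSG00000030595.15, chr7:28758251-28767512, minus strand) encodes IκBβ, which is slower to be degraded than IκBα, and its promoter window held no κB match. It was at 45.5, 53.0, 52.8 and 45.2 CPM in untreated and 42.2, 44.8, 44.1 and 41.7 CPM in lipid-treated replicates A to D. The groups were apart by a narrow margin, and *Nfkbib* fell by 12.0% (log2 fold change −0.18, SE 0.0456, adjusted p = 0.00364). In the itaconate group it was at 47.7, 55.4, 48.6 and 47.8 CPM, and at 46.3, 51.2, 46.3 and 46.8 CPM with both agents, where it lay above all lipid-treated libraries. That difference (0.14, higher in 4 of 4 letters) had an adjusted p of 0.113 in edgeR and was called when lipid + itaconate replicate C was left out (adjusted p = 0.0463). With lipid over itaconate the difference was −0.06 (adjusted p = 0.254).

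*Nfkbie* (ENSMUSG00000023947.8, chr17:45555703-45563169, plus strand) encodes IκBε, a further inducible inhibitor, and has a κB match 106 bases before its start. Replicates A to D were at 13.0, 10.7, 7.56 and 9.06 CPM in untreated, 11.5, 8.35, 7.76 and 8.50 CPM in itaconate-treated, 12.6, 8.61, 7.26 and 7.43 CPM in lipid-treated and 11.3, 8.40, 10.0 and 8.62 CPM in lipid + itaconate-treated hepatocytes. Replicate A was the highest library in every group, and the groups overlapped in all comparisons. With lipid it was lower in 4 of 4 letters, and the log2 difference of −0.18 (95% interval −0.41 to 0.05, adjusted p = 0.186) did not pass the test. The remaining differences were −0.15 with itaconate, 0.12 with itaconate over lipid and 0.09 with lipid over itaconate, with adjusted p values from 0.435 to 0.592 in edgeR.

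**Figure D2:**
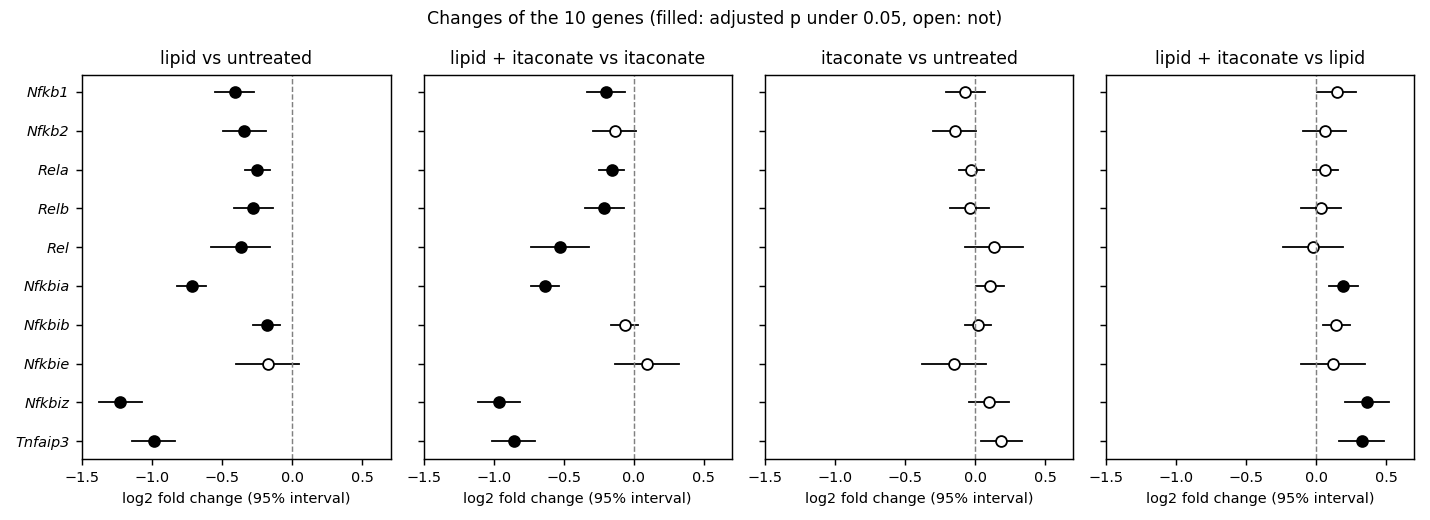
Log2 fold change (horizontal axis) of each member (vertical axis) in the 4 pairwise comparisons, with 95% intervals. Filled points had an adjusted p under 0.05 in edgeR. With lipid, 9 points are filled and all lie to the left of 0, with itaconate alone 0 are filled, and with itaconate over lipid *Nfkbia*, *Nfkbiz* and *Tnfaip3* are filled to the right.

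Summed over each class, the 5 inhibitors together were at 210.2 ± 8.94 CPM (SD, n = 4) in untreated hepatocytes, at 224 ± 8.73 CPM with itaconate, at 132 ± 1.27 CPM with lipid and at 153 ± 7.57 CPM with both agents. The subunits were at 630.2 ± 19.99, 604 ± 25.6, 503 ± 34.2 and 533 ± 27.9 CPM in the same order. The inhibitor sums of the lipid group (131 to 134 CPM) lay below those of the lipid + itaconate group (148 to 164 CPM), whereas the subunit sums of these groups overlapped. These sums were not tested and do not measure inhibition. They count *Nfkbiz*, whose product can also raise transcription, as an inhibitor, and *Nfkb2*, whose product p100 also inhibits, as a subunit. The subunit sum is made up mostly of *Rela* and *Nfkb1*, and the lower inhibitor sum came mostly from *Nfkbiz*, *Tnfaip3* and *Nfkbia*, since *Nfkbib* and *Nfkbie* (both −0.18 on the log2 scale) were closer to 0 with lipid than every subunit (−0.41 to −0.25).

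The order of the members by their lipid effect was nearly the same with and without itaconate. The comparisons of lipid with untreated cells and of lipid + itaconate with itaconate share no library, and over the 10 members their log2 fold changes had a Pearson r of 0.938 and a Spearman rho of 0.915, given as a description of 10 genes from the same 16 libraries. *Nfkbie* alone changed sign between them, from −0.18 to 0.09, with neither called. The fold changes were closer to 0 with itaconate for 9 of the 10 genes and further from 0 for *Rel*. The differences between the paired effects ran from −0.16 for *Rel* to 0.27 for *Nfkbie*, and 0 of 10 were called (0.00857% of all genes, that is 1 gene, *Cxcl10*), with adjusted p values from 0.479 to 0.882 and an unadjusted p under 0.05 for *Nfkb1* and *Nfkbiz*. For itaconate the relation between the effects without and with lipid was weaker, at an r of 0.453 and a rho of 0.321 over the 10 genes.

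**Figure D3:**
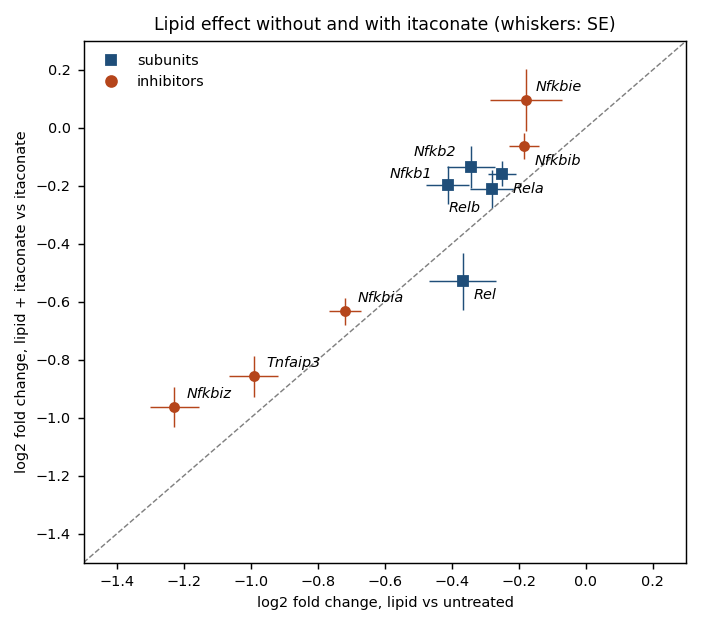
Log2 fold change with lipid in the absence (horizontal axis) and presence (vertical axis) of itaconate for the 5 subunits (squares) and 5 inhibitors (circles), whiskers 1 SE, dashed line where both are equal. *Nfkbiz*, *Tnfaip3* and *Nfkbia* lie far down the line, 9 genes lie above it and *Rel* below it.

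Across the 16 libraries, after the mean of each letter was taken off the log2 CPM, the genes whose pattern was most like that of *Nfkbiz* among 9635 genes whose mean reached 5 CPM were *Mgea5* (r = 0.989), which encodes the enzyme that removes O-GlcNAc from proteins, *Ext1* (0.988), a heparan sulfate polymerase, *Klf6* (0.986), an immediate-early zinc finger factor, *Man2a1* (0.983), a Golgi mannosidase, and *Chp1* (0.982), a calcium-binding protein. *Mgea5*, for example, went from 172 ± 12.9 CPM (SD, n = 4) in untreated to 105 ± 13.2 CPM in lipid-treated hepatocytes. Of the members, *Tnfaip3* (0.977) and *Nfkbia* (0.976) were the most like *Nfkbiz*. A higher r was found for 0.188% and 0.206% of all 11675 genes tested, shares that count *Nfkbiz* itself and the other members. *Rela* (0.902), *Nfkb1* (0.858), *Rel* (0.836), *Relb* (0.801), *Nfkbib* (0.769) and *Nfkb2* (0.711) followed, and *Nfkbie* was at 0.174. These values describe libraries in 4 treatment groups, so that genes lowered by lipid correlate with *Nfkbiz*. Ranked by Spearman's rho the leading genes were others, *Kdm3a* and *Smad3* (both 0.982), *Rora* (0.979), *Slc38a2* (0.974) and *Gabpb2* (0.971).

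Beyond the 10 members, further IκB proteins and brakes of the pathway showed no common direction. Of 18 such genes 16 were tested, and with lipid 4 were higher and 5 lower (median −0.05). Over all genes 23.8% were higher and 23.7% lower with lipid. *Zc3h12a*, which encodes the RNase Regnase-1, fell from 22.5 to 14.6 CPM (log2 fold change −0.62, SE 0.0777, adjusted p = 1.25e-05). *Itch*, a ubiquitin ligase that works with A20, fell as well (log2 fold change −0.36, SE 0.0451, adjusted p = 1.26e-05), while *Nkiras1*, a Ras-like protein that binds IκBβ, rose from 6.95 to 13.0 CPM (log2 fold change 0.91, SE 0.112, adjusted p = 1.15e-05). With lipid over itaconate the counts were again 4 and 5, beside 23.5% of all genes in each direction. The log2 fold changes were −0.62 for *Zc3h12a*, −0.35 for *Itch* and 0.73 for *Nkiras1*. Itaconate alone lowered 1 of 16, against 2.95% of all genes. This was *Tnip1*, a partner of A20 (log2 fold change −0.30, SE 0.0597, adjusted p = 0.00995, 0.0619 without itaconate replicate C and 0.164 with no term for the letter). Itaconate over lipid changed 0 of 16, against 2.58% of all genes called in either direction.

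Kinases and adaptors were likewise split. Of 29 listed genes 28 were tested, and with lipid 6 were higher and 12 lower (median −0.09), the same counts as with lipid over itaconate. Over all genes 23.8% were higher and 23.7% lower with lipid, and 23.5% each way with lipid over itaconate. *Ikbke*, the inducible IKK-related kinase, fell from 100.02 to 51.3 CPM (log2 fold change −0.97, SE 0.122, adjusted p = 1.35e-05). *Ripk1*, the kinase at the TNF receptor, also fell (log2 fold change −0.36, SE 0.0446, adjusted p = 1.23e-05), and *Ticam1*, the adaptor TRIF of Toll-like receptor 3, rose (log2 fold change 0.57, SE 0.0618, adjusted p = 2.85e-06). With lipid over itaconate *Ikbke* (−0.71), *Ripk1* (−0.35) and *Tab2* (−0.23), an adaptor of the kinase TAK1, were lower. Itaconate alone raised 1 of 28, *Tab2* (0.12, adjusted p = 0.0450), where 1.96% of all genes were higher. Leaving out 1 library ended that call for any untreated or itaconate library, lipid replicate B or D, or lipid + itaconate replicate D (adjusted p from 0.0532 to 0.165). A model without the letter (0.338) or without a filter (0.165) ended it too. Itaconate over lipid changed 0 of 28, against 2.58% of all genes called in either direction.

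At the level of receptors and ligands, 12 of 21 genes were tested and lipid lowered 7 and raised 0 (median −0.23). Over all genes 23.7% were lower and 23.8% higher with lipid. *Il1r1*, the signalling receptor of IL-1, was at 84.7, 99.0, 126 and 103 CPM in untreated, 40.2, 30.5, 37.1 and 35.0 CPM in lipid-treated and 51.0, 42.3, 58.4 and 53.4 CPM in lipid + itaconate-treated replicates A to D. All lipid-treated libraries lay below those of both other groups. *Il1r1* fell with lipid (log2 fold change −1.52, SE 0.0939, adjusted p = 1.00e-08). It was also the 1 gene of this list raised by itaconate over lipid (log2 fold change 0.52, SE 0.0944, adjusted p = 0.0122), where 1.32% of all genes were higher. That call was lost without lipid + itaconate replicate A (adjusted p = 0.0646) or lipid replicate D (0.0502), or without the replicate letter in the model (0.232).

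Lipid also lowered *Tlr3*, a sensor of double-stranded RNA, from 17.1 to 10.0 CPM (log2 fold change −0.77, SE 0.0916, adjusted p = 7.95e-06) and *Tnfrsf12a*, the receptor of TWEAK (log2 fold change −0.25, SE 0.0412, adjusted p = 0.000144). With lipid over itaconate 1 gene of the list was higher and 5 lower, beside 23.5% of all genes in each direction. The lower ones included *Il1r1* (−1.30), *Tnfrsf12a* (−0.33) and *Tnfrsf1a* (−0.35), the main receptor of TNF. Itaconate alone lowered 3, beside 2.95% of all genes. They were *Tlr3* (log2 fold change −0.57, SE 0.0901, adjusted p = 0.00211), *Tnfsf12*, which encodes TWEAK (−0.59, adjusted p = 0.0214), and *Tlr2* (−0.56, adjusted p = 0.0235). The call of *Tnfsf12* was lost without any of untreated A, B and D and itaconate B, C and D (adjusted p from 0.0650 to 0.0840), and that of *Tlr2* without untreated replicate A, C or D or itaconate replicate C or D (0.0590 to 0.119). Both were also lost with no term for the letter (0.159 and 0.222), where *Tlr3* held. The ligand genes *Tnf*, *Il1b*, *Il1a* and *Lta* had group means of at most 0.380 CPM and were not tested.

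Of 31 genes listed as textbook targets of NF-κB (the members left out), 24 were tested. Lipid lowered 22 and raised 0, beside 23.7% lower and 23.8% higher over all genes. The median log2 fold change was −0.62, a larger median fall than that of the members. *Cxcl1*, a neutrophil chemokine, went from 62.3, 85.3, 48.3 and 47.4 CPM in untreated to 27.7, 25.8, 14.2 and 15.3 CPM in lipid-treated replicates A to D, and all lipid-treated libraries were lower. It fell by 66.1% (log2 fold change −1.56, SE 0.109, adjusted p = 3.92e-08). *Cxcl10*, an interferon-inducible chemokine (−1.34, SE 0.0467, adjusted p = 3.10e-11), and *Saa3*, an acute phase protein (−1.11, SE 0.0674, adjusted p = 9.08e-09), fell too. The genes not called were *Plau* (−0.33) and *Gadd45b* (0.25), which were singled out after their values were seen. With lipid over itaconate 21 of 24 were lower and 0 higher (median −0.43), beside 23.5% of all genes in each direction. *Cxcl2* was at −2.42, *Saa3* at −1.01 and *Cxcl10* at −0.87.

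Itaconate over lipid raised 4 of the 24 targets and lowered 0, beside 1.32% higher and 1.26% lower over all genes. *Cxcl1* was at 34.3, 40.6, 32.3 and 26.0 CPM in lipid + itaconate-treated replicates A to D and rose (log2 fold change 0.71, SE 0.111, adjusted p = 0.00431). *Sod2*, the mitochondrial superoxide dismutase, rose from 205 to 239 CPM (log2 fold change 0.22, SE 0.0400, adjusted p = 0.0105), and *Steap4*, a metalloreductase, from 225 to 307 CPM (log2 fold change 0.46, SE 0.0996, adjusted p = 0.0264). The fourth was *Bcl2l1*, which encodes BCL-XL (0.14, adjusted p = 0.0492). That call lay close to the threshold, and its dependence on the alternatives was not examined. The call of *Steap4* was lost without lipid + itaconate replicate A (adjusted p = 0.110) or B (0.0747) or lipid replicate C (0.0791) or D (0.0973). Without the replicate letter in the model the calls of *Cxcl1* (0.311), *Sod2* (0.455) and *Steap4* (0.506) ended, and on the 8 libraries of the comparison alone those of *Cxcl1* (0.124) and *Sod2* (0.204). Itaconate alone raised *Cxcl1* (log2 fold change 0.40, SE 0.1003, adjusted p = 0.0335), where 1.96% of all genes were higher. It lowered *Cxcl10* (log2 fold change −0.41, SE 0.0454, adjusted p = 0.000117) and *Csf1*, a macrophage growth factor (−0.53, adjusted p = 0.0327), where 2.95% of all genes were lower. The call of *Cxcl1* was lost without replicate A, C or D of the untreated or of the itaconate group (adjusted p from 0.0821 to 0.131), and that of *Csf1* without any of untreated A, B and D and itaconate B, C and D (0.0837 to 0.149). Without the replicate letter those of *Cxcl1* (0.487), *Csf1* (0.202) and *Cxcl10* (0.126) were lost.

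**Figure D4:**
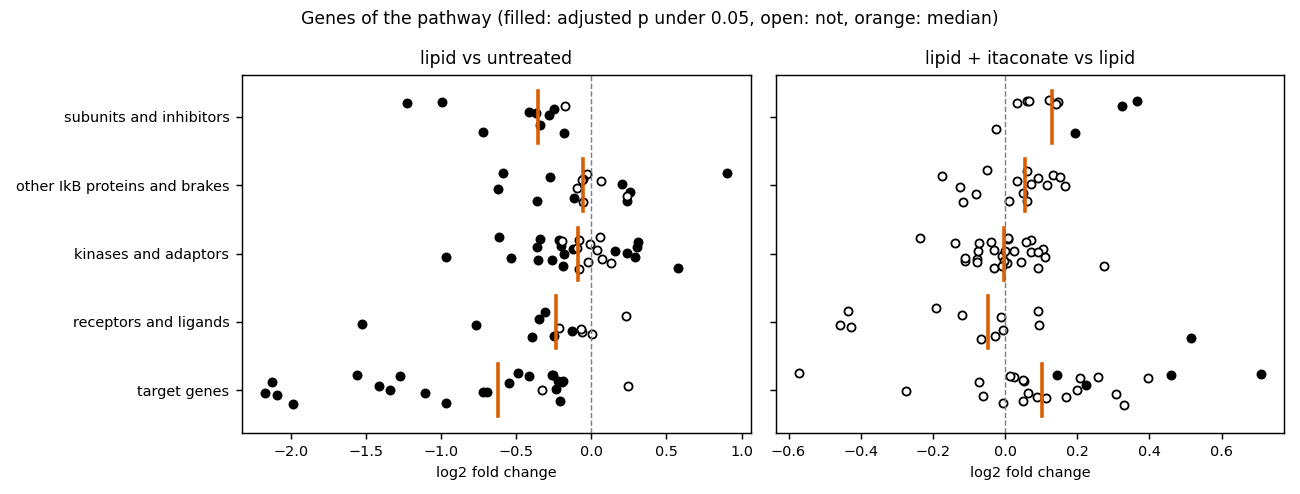
Log2 fold change (horizontal axes, of differing range) of every tested gene of the 10 members and of 4 further lists (vertical axis), with lipid and with itaconate over lipid. Filled points had an adjusted p under 0.05 in edgeR and orange bars are medians. With lipid the targets (median −0.62) and the members (−0.36) lie left of 0, and with itaconate over lipid the few filled points all lie to the right.

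Markers of other liver cells were measured beside these changes. The 12 macrophage markers summed to 547 to 644 CPM in untreated, 464 to 597 in itaconate-treated, 518 to 685 in lipid-treated and 551 to 628 CPM in lipid + itaconate-treated libraries, nearly all of it *Cd14* and *Cd68*, and 0 of the 12 were at 0 in every library of a group. With lipid, 1 of the 8 tested was higher (*Cd68*, 0.43) and 4 were lower, among them the Kupffer cell genes *Marco* (10.2 to 6.03 CPM) and *Cd5l* (13.6 to 7.85 CPM). With lipid over itaconate 1 was higher and 6 lower. Over all genes 23.8% were higher and 23.7% lower with lipid, and 23.5% each way with lipid over itaconate. Endothelial markers summed to 15.1 to 31.6 CPM and stellate markers to between 15.6 and 24.99 CPM over all libraries, with *Acta2* at 0 in 3 of the 4 groups. Cholangiocyte markers ran from 339 to 1177 CPM, chiefly *Spp1*, which fell with lipid (log2 fold change −0.97, SE 0.0705, adjusted p = 5.39e-08), while *Krt7* was at 0 in 2 groups. Of the 3 cholangiocyte markers tested, lipid lowered 2 and raised 1 (log2 fold change 0.37), beside 23.7% lower and 23.8% higher over all genes. Of 10 hepatocyte markers 4 were lower and 0 higher with lipid, beside 23.7% of all genes lower, among them *Alb* (log2 fold change −0.18). The median log2 fold change of the 10 was −0.20. With lipid over itaconate 6 of them were lower and 1 higher (median −0.21), beside 23.5% of all genes each way. The part of these cells in the changes of the NF-κB genes was not tested.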

How the data were processed

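Gene-level expected counts were deposited by the authors for the 16 libraries in 1 table. Per the submitters' processing notes and the study's methods, reads from a stranded mRNA kit were demultiplexed with bcl2fastq 2.20, trimmed with Cutadapt 1.18, aligned to mm10 with STAR 2.7.0f in 2 passes, checked with Picard 2.18.26 and quantified with RSEM 1.3.1. The annotation release is not given in the sources used here, and all 55450 gene IDs matched GENCODE M21 (GRCm38), from which coordinates and exon lengths were taken. Of all deposited values, 5.41% were not whole, and every value was rounded. The 10 members' values were whole.

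Levels are CPM with TMM factors and log2 values used a prior count of 0.5. Differences were tested with edgeR 4.0.16 (R 4.3.3, quasi-likelihood, two-sided, 9 residual degrees of freedom) over 11675 of the 25152 genes with a count, with Benjamini-Hochberg adjustment and a threshold of 0.05. An SE is the fold change over the root of the F statistic. The interaction is the itaconate effect with lipid minus that without. The deposited totals had a median of 27719372 per library. The replicate letter stayed in the model because same-letter libraries of different groups deviated together (24 of 24 correlations over 0.1, 0.143 to 0.468, against a median of −0.114 for 72 pairs of other letters). The study's methods also removed a batch effect without naming the batch. DESeq2 1.42.0, limma 3.58.1, RLE factors, other filters, a model without the letter, models of 8 libraries and the loss of each library were run as alternatives, and the scripts were tested on simulated data. The text names all members, the 5 genes most like *Nfkbiz*, and markers. From each of 4 further lists it names the 3 genes of smallest p among those called in each comparison. Named outside this rule were *Bcl2l1*, *Plau*, *Gadd45b*, the untested ligand genes and the genes leading by Spearman's rho. Members and lists were chosen with earlier results of these data known. Protein sequences were not analysed here.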

Additional observations from a re-analysis of the deposited data

Results flagged for a closer look

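Among the 40 groups of 4 libraries (10 genes in 4 treatments), 3 held a library that stood apart from the rest by Dixon's ratio, the gap to its nearest neighbour over the range of the group, beyond its 95% critical value. Chance alone gives about 1 in 20 such groups. *Nfkbib* in replicate B was at 55.4 CPM in the itaconate group, where the others lay between 47.7 and 48.6 CPM (ratio 0.885). In the lipid + itaconate group its replicate B was at 51.2 CPM and the others between 46.3 and 46.8 CPM (ratio 0.895). *Tnfaip3* in untreated replicate B was at 52.7 CPM, with the others between 42.9 and 44.5 CPM (ratio 0.834). All 3 were the highest library of their group and all carried the letter B.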

How the results depend on the processing

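Of lipid against untreated cells, 9 members were called under all alternatives run. With lipid over itaconate 7 were called, and 6 without the replicate block (*Nfkb1*, adjusted p = 0.0551). With 1 library left out this count was 5 to 8. It was 5 without itaconate replicate A or lipid + itaconate replicate D, and 8 without lipid + itaconate replicate C. With itaconate alone 0 were called, 2 in the model of 8 libraries, and 0 to 1 with 1 library left out. With itaconate over lipid 3 were called, 0 without the replicate block, 0 in the model of 8 libraries, 2 after filterByExpr (*Nfkbia*, adjusted p = 0.0532), and 0 to 4 with 1 library left out: 0 without lipid + itaconate replicate A or B or lipid replicate A, and 4 without lipid + itaconate replicate C. These 3 calls were thus lost without the letter, and also in the model of 8 libraries, which kept it. Leaving out the block also ended the calls of *Cxcl1* (adjusted p = 0.311), *Il1r1* (0.232), *Sod2* (0.455) and *Steap4* (0.506) with itaconate over lipid. With itaconate alone it ended those of *Cxcl10* (0.126), *Csf1* (0.202), *Cxcl1* (0.487), *Tab2* (0.338), *Tlr2* (0.222), *Tnfsf12* (0.159) and *Tnip1* (0.164), where of the named genes *Tlr3* held. For the interaction 0 members were called under all alternatives. Over all genes, calls with itaconate alone went from 573 to between 23 (no replicate block) and 1859 (8 libraries), with 1091 without a filter and 149 to 1047 with 1 library left out. Calls with itaconate over lipid went from 301 to between 9 and 725 (512 with DESeq2, 14 with 8 libraries), and to between 59 and 889 with 1 library left out. Interaction calls went from 1 to between 0 and 231 (no filter), with 36 by DESeq2. The cause was not tested.

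Leaving out 1 library turned the sign of 8 differences, none called. With itaconate alone these were *Rela* (−0.0454 to 0.0019), *Relb* (−0.0831 to 0.0013) and *Nfkbib* (−0.0033 to 0.0625). With itaconate over lipid they were *Nfkb2* (−0.0363 to 0.1502), *Relb* (−0.0154 to 0.0949, with −0.0015 and −0.0131 between), *Rel* (−0.1264 to 0.0349, with 0.0142 and 0.0095 between) and *Nfkbie* (−0.0041 to 0.186), and with lipid over itaconate *Nfkbie* (−0.0311 to 0.1579). Genes at the low end, *Nfkbie* and *Rel*, had the widest intervals.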
